A study of Homo sapiens with 24 samples.

Results

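SR proteins and hnRNPs are the 2 classic families of RNA-binding proteins that steer splice site choice, and 35 of their genes, 13 SR and 22 hnRNP, were followed among the 38048 genes measured in a human leukaemia cell line treated with methyltransferase and demethylase inhibitors. The members were taken by name as a functional set: SRSF1 to SRSF11, TRA2A and TRA2B on the SR side, and the HNRNP genes with PTBP1 and PTBP3 on the other. They held 450 annotated transcripts of the 178398 measured, so gene level and transcript make-up could be set side by side.

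Messenger RNA was measured by poly(A)-selected, unstranded RNA sequencing in MV4-11, an established acute myeloid leukaemia line that carries the MLL-AF4 fusion and is labelled PRMT5 +/+ in every library. The 24 libraries formed 8 groups of 3, named A, B and C. DMSO was the vehicle control. The first treated groups were exposed over 3 days to 3 nM PRT220, which inhibits PRMT5, to 10 nM GSK-LSD1, which inhibits the demethylase LSD1, or to the pair. MS023 blocks the type I arginine methyltransferases and was used by itself and with GSK-LSD1. MC4455 and MC4491, known only by their codes, made up the other two groups, and neither dose nor time was stated in the labels used here for MS023 or the code-named compounds. Whether A, B and C were separate cultures was not said in the labels, so the p-values cover no more than the spread among these libraries, which may be technical. All groups come from 1 cell line, and in bulk RNA fewer cells of a kind and less RNA per cell cannot be told apart.

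SR proteins carry RNA recognition motifs and a tail rich in arginine and serine, bind exonic enhancers and recruit the spliceosome, whereas hnRNPs often repress nearby exons or bind introns. hnRNPs hold glycine and arginine rich stretches that PRMT1 and other type I enzymes methylate asymmetrically, and PRMT5 symmetrically methylates Sm proteins of the spliceosome and several splicing regulators. Many members control their own amount: splicing is shifted to a poison exon with a premature stop codon or to a retained intron, and the resulting transcript is degraded by nonsense-mediated decay or kept in the nucleus. For that reason each member was read in 2 ways, as its gene level and as the share of its reads on transcripts annotated as non-coding (retained intron, nonsense-mediated decay or processed transcript).

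Library totals ran from about 32495400 (MC4455 C) to 61090600 (DMSO B) estimated counts, and the members took 1.499% to 1.70% of them. All 12 myeloid and leukaemia markers checked were detected, FLT3 at 578 to 715 CPM (counts per 1000000 counts of the library) and MPO lowest at 5.90 to 11.5 CPM. The summed level of 16 markers of other cell types was 13.6 to 15.3 CPM in DMSO, 14.8 to 17.8 with PRT220, 14.6 to 17.8 with GSK-LSD1, 16.9 to 18.1 with both, 13.4 to 14.0 with MS023, 16.2 to 17.3 with MS023 and GSK-LSD1, 14.6 to 17.04 with MC4455 and 15.8 to 17.6 with MC4491, with 3 to 6 of the 16 at 0 in each group. Their part in the results was not tested. The libraries also split by RRP9, a gene of the U3 small nucleolar ribonucleoprotein: 8 libraries (DMSO C, PRT220 A, B and C, PRT220 with GSK-LSD1 C, MS023 A and C, and MS023 with GSK-LSD1 B) held 0.677 to 1.73 CPM of RRP9, and the other 16 held 29.1 to 36.2 CPM. All 3 PRT220 libraries were on the low side, so PRT220 alone could be compared with DMSO C only within that split. With a term for the split, 2 of the 35 members were called for it at the gene level, SRSF4 (-0.12 on the log2 scale, adjusted p = 0.0235) and HNRNPU (-0.13, adjusted p = 0.0205). The same members were called for it in the log2 ratio of non-coding to coding reads, HNRNPU (-0.38, adjusted p = 0.0330) and SRSF4 (-0.41, adjusted p = 0.0455).

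The members are abundant messages. Per transcript length and scaled to a fixed sum (TPM), the median over libraries was highest for HNRNPA1 (2228), HNRNPC (1266), HNRNPU (1083) and HNRNPH1 (1074), and lowest for SRSF4 (75.4), HNRNPLL (68.6), HNRNPA0 (49.2) and SRSF8 (21.7). The non-coding share differed widely among them. TRA2B, which activates exons through GAA-rich enhancers and controls itself through a poison exon, had a median of 82.4% of its reads on non-coding transcripts, followed by HNRNPH1 at 66.6%, SRSF11 at 53.6% and SRSF4 at 49.7%. Together, 19.8% to 25.7% of the members' reads per library were on non-coding transcripts, against 9.41% to 11.3% over all protein-coding genes.

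At the gene level, more members fell than rose with MC4455, MC4491 and both combinations, and few were called with PRT220, GSK-LSD1 or MS023 alone. Genes with an adjusted p under 0.05 are referred to as called. With PRT220, 4 members rose and 2 fell of 35, where 13.8% of all 16640 genes tested rose and 11.1% fell. With GSK-LSD1, 2 rose and 3 fell (all genes 17.6% and 15%). Their combination had 5 higher and 14 lower members (all genes 24.4% and 22.1%). With MS023 no member was called by edgeR or DESeq2 and 5 had an unadjusted p below 0.05, where 2.25% of all genes were called. MS023 with GSK-LSD1 had 3 higher and 17 lower members (all genes 25.1% and 23.3%).

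Members also fell with the code-named compounds. With MC4455, 2 members rose and 21 fell (all genes 18.5% and 19.2%), and with MC4491, 2 rose and 22 fell (all genes 15.5% and 15.2%). The shifts were small: the members' median was -0.16 on the log2 scale with MC4455 and -0.15 with MC4491, against 0.01 over all genes in each. It was -0.09 with PRT220 and GSK-LSD1 and -0.12 with MS023 and GSK-LSD1, against 0.04 and 0.03. All 7 comparisons share the DMSO libraries, and DMSO A was the highest of its group for many hnRNP genes. Without DMSO A, 16 members were called with MC4455, 13 with MC4491, 14 with either combination, 2 with GSK-LSD1 and 7 with PRT220. With only the groups compared in the fit, 12 were called with MC4491, 8 with GSK-LSD1, 19 with MC4455, 14 with PRT220 and GSK-LSD1 and 17 with MS023 and GSK-LSD1. Percentages of all genes called in these refits are not given here. The counts therefore cannot show whether the members moved more than other genes. Members of both families fell: with MC4455, 7 of 13 SR and 14 of 22 hnRNP genes. In the comparisons with DMSO and between the combination and its single agents, SRSF5, SRSF11, HNRNPC, HNRNPU and HNRNPUL1 were never called.

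**Figure D1:**
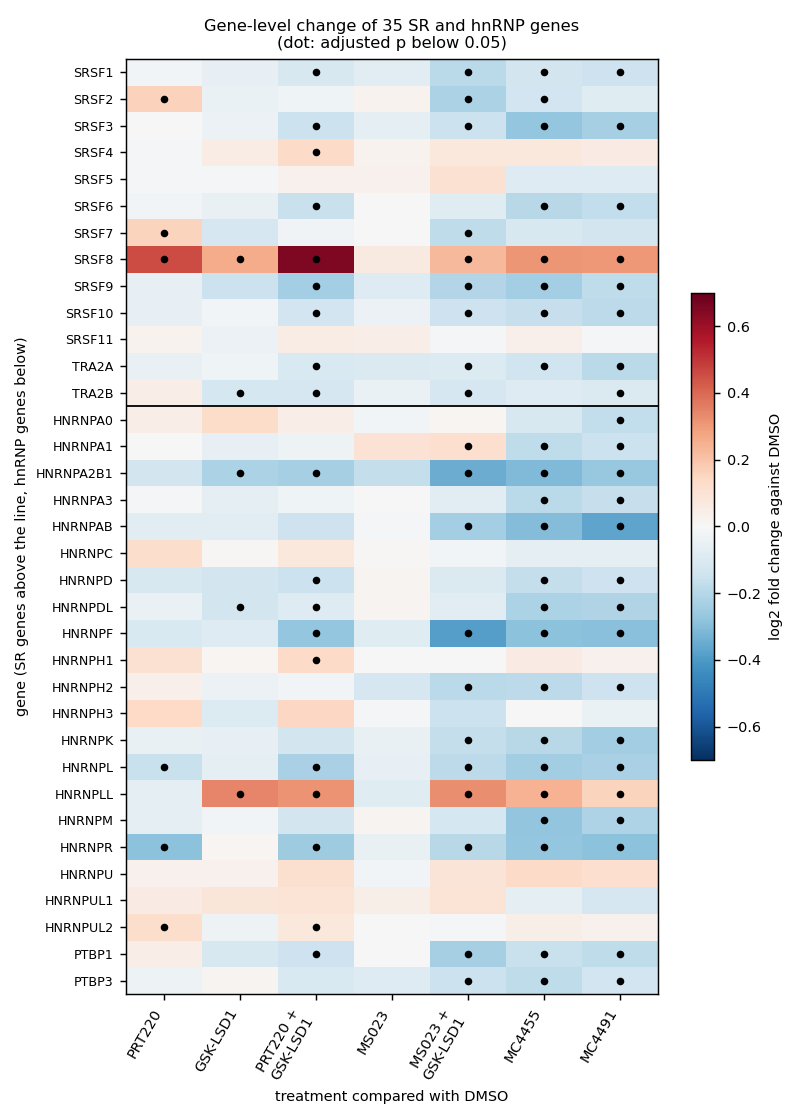
Log2 fold change against DMSO (colour, from -0.7 in blue to 0.7 in red) of each of the 35 members (rows, SR genes above the line) with each treatment (columns), with a dot where the adjusted p was below 0.05. The rows of SRSF8 and HNRNPLL are red in most columns, the MC4455 and MC4491 columns are mostly blue, and the MS023 column has no dot.

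Among SR genes, SRSF8 stood out by rising. SRSF8 (ENSG00000263465, chr11:95067197-95071224, GRCh38) arose as a processed copy of SRSF2, so the counting could share reads between them, and is the least abundant member. Its level was 24.3, 25.0 and 24.2 CPM in DMSO A, B and C, 33.2, 33.9 and 33.8 with PRT220, 27.6, 31.6 and 28.9 with GSK-LSD1 and 38.1, 38.4 and 39.1 with both. No library of these 3 treated groups overlapped with DMSO, and the combination was above either agent in every library. The log2 fold change was 0.45 ± 0.04 (SE, adjusted p = 1.99e-07) with PRT220, 0.26 ± 0.04 (SE, adjusted p = 8.5e-05) with GSK-LSD1 and 0.65 ± 0.04 (SE, adjusted p = 1.63e-10) with both. SRSF8 also rose with MS023 and GSK-LSD1 (0.23), MC4455 (0.31) and MC4491 (0.30), but had 25.1, 25.4 and 26.3 CPM with MS023 alone, not called. These calls held when any single library was left out.

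SRSF2, which recognises enhancers rich in C and G and is recurrently mutated in myeloid neoplasms, went in different directions by treatment. It had 393, 372 and 379 CPM in DMSO, 432, 422 and 427 with PRT220 and 333, 338 and 309 with MS023 and GSK-LSD1, with no overlap with DMSO in either direction. The log2 fold changes were 0.16 ± 0.05 (SE, adjusted p = 0.0122) and -0.22 ± 0.05 (SE, adjusted p = 0.000476). SRSF2 was not called in level with PRT220 without DMSO B or PRT220 A, left out singly (0.14, adjusted p = 0.0516 to 0.0669). With the RRP9 term, the PRT220 value was 0.13 (adjusted p = 0.0672). SRSF2 lies opposite MFSD11 on the other strand, and with unstranded libraries reads of overlapping genes cannot be told apart by strand. SRSF7, which also promotes mRNA export, had 228, 213 and 219 CPM in DMSO, 252, 239 and 243 with PRT220 and 199.6, 203 and 181 with MS023 and GSK-LSD1, log2 fold changes of 0.15 ± 0.05 (SE, adjusted p = 0.028) and -0.18 ± 0.05 (SE, adjusted p = 0.00584). SRSF7 was not called in level with PRT220 without DMSO B, DMSO C, PRT220 A or PRT220 C, left out singly (0.12 to 0.15, adjusted p = 0.0628 to 0.137). With the RRP9 term it was 0.11 (adjusted p = 0.136), and the call with MS023 and GSK-LSD1 was lost without replicate C of that group (-0.13, adjusted p = 0.0502).

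SRSF3, SRSF6, SRSF9 and SRSF10 fell. SRSF3, the smallest SR protein and a regulator of its own poison exon, had 452, 420.1 and 467 CPM in DMSO, 382, 355 and 371 with MC4455 and 348, 411 and 382 with MC4491. The groups did not overlap, and the log2 fold changes were -0.27 ± 0.06 (SE, adjusted p = 0.00099) and -0.23 ± 0.06 (SE, adjusted p = 0.00494). SRSF9, a close relative of SRSF1, had 201, 194 and 208 CPM in DMSO, 160.7, 176 and 175 with PRT220 and GSK-LSD1 (-0.24 ± 0.06 (SE, adjusted p = 0.00195)) and 175, 164 and 172 with MC4455 (-0.24 ± 0.06 (SE, adjusted p = 0.00322)). SRSF6 fell with the PRT220 combination (-0.16), MC4455 (-0.20) and MC4491 (-0.17). SRSF10, which represses splicing when dephosphorylated in heat-shocked and mitotic cells, fell with MS023 and GSK-LSD1 (-0.15), MC4455 (-0.16) and MC4491 (-0.19). Every called change of these 4 genes was a fall.

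SRSF1, the prototype SR protein and a proto-oncogene, had 636, 590.5 and 572 CPM in DMSO and 539, 529 and 509 with MS023 and GSK-LSD1, a log2 fold change of -0.19 ± 0.04 (SE, adjusted p = 0.000277). Smaller falls were called with the PRT220 combination (-0.11), MC4455 (-0.13) and MC4491 (-0.14), and each was lost without DMSO A (-0.07, adjusted p = 0.141, -0.08, adjusted p = 0.078 and -0.10, adjusted p = 0.0561). The TRA2 pair are SR-like activators that bind related enhancers. TRA2A (ENSG00000164548, chr7:23504780-23532041) had 96.5, 96.8 and 96.1 CPM in DMSO, a narrow range, and 85.3, 85.3 and 83.0 with MC4491 (-0.19 ± 0.03 (SE, adjusted p = 0.000213)). TRA2B (ENSG00000136527, chr3:185915906-185938136) had 510.3, 495 and 489 CPM in DMSO and 454, 464 and 454 with GSK-LSD1 (-0.12 ± 0.04 (SE, adjusted p = 0.0159)). TRA2B was not called in level with GSK-LSD1 without DMSO A or GSK-LSD1 C, left out singly (-0.11 to -0.12, adjusted p = 0.0528 to 0.0696).

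SRSF4 also rose, with 104, 103 and 95.7 CPM in DMSO and 116, 108 and 108 with PRT220 and GSK-LSD1, a log2 fold change of 0.14 ± 0.05 (SE, adjusted p = 0.0373). Its reads on coding transcripts alone changed by -0.11 there, on the log2 scale of group means. Retained introns went from 41.7% to 50.3% of its reads, with the non-coding share not called. SRSF4 was not called in level with PRT220 and GSK-LSD1 without DMSO B, DMSO C or PRT220 with GSK-LSD1 A, left out singly (0.09 to 0.13, adjusted p = 0.0738 to 0.214). It was one of the members whose level differed with the RRP9 split.

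On the hnRNP side, HNRNPLL was the counterpart of SRSF8. HNRNPLL (ENSG00000143889, chr2:38561978-38603586) is best known as the factor that switches CD45 isoforms in lymphocytes. It had 57.5, 62.2 and 64.8 CPM in DMSO, 76.3, 77.8 and 80.2 with GSK-LSD1, 74.5, 77.7 and 77.1 with PRT220 and GSK-LSD1, and 79.1, 76.8 and 75.8 with MS023 and GSK-LSD1. Every library that received GSK-LSD1 was above every DMSO library. Log2 fold changes were 0.34 ± 0.05 (SE, adjusted p = 5.49e-06), 0.31 ± 0.05 (SE, adjusted p = 1.14e-05) and 0.33 ± 0.05 (SE, adjusted p = 7.6e-06). Without GSK-LSD1 it stayed at 56.9, 61.5 and 58.1 CPM with PRT220 and 56.4, 58.6 and 58.9 with MS023, neither called. MC4455 had 72.0, 71.4 and 75.5 CPM (0.25 ± 0.05 (SE, adjusted p = 0.000442)). MC4491 overlapped with DMSO at 68.6, 72.4 and 64.4 CPM (0.15 ± 0.05 (SE, adjusted p = 0.0165)). HNRNPLL was not called in level with MC4491 without DMSO A, MC4491 A or MC4491 B, left out singly (0.11 to 0.14, adjusted p = 0.0655 to 0.106).

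HNRNPR and HNRNPL fell with PRT220, alone or combined, and with MS023 plus GSK-LSD1, MC4455 and MC4491, and were not called with GSK-LSD1 or MS023 alone. HNRNPR (ENSG00000125944, chr1:23303771-23344336), which takes part in mRNA transport in neurons, had 283, 265 and 257 CPM in DMSO, 219.9, 223 and 216 with PRT220 and 271, 279 and 261 with GSK-LSD1. The PRT220 libraries were all below DMSO, and those with GSK-LSD1 were within the DMSO range. Log2 fold changes were -0.29 ± 0.05 (SE, adjusted p = 8.06e-05) with PRT220, -0.25 with the combination, -0.19 with MS023 and GSK-LSD1, -0.27 with MC4455 and -0.29 with MC4491. HNRNPL (ENSG00000104824, chr19:38836388-38852347), a CA-repeat binding repressor, had 577, 527 and 556 CPM in DMSO and 506, 505 and 481 with PRT220, -0.15 ± 0.04 (SE, adjusted p = 0.00548). Its falls with the combination (-0.23), MC4455 (-0.24) and MC4491 (-0.23) were larger in size. No call of these genes against DMSO was lost under any alternative run.

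HNRNPF (ENSG00000169813, chr10:43385617-43409166), which binds G-tracts near regulated exons, gave the largest fall of any member in both combinations. It had 521, 469 and 469 CPM in DMSO, 396, 398 and 414 with PRT220 and GSK-LSD1 and 363, 403 and 353 with MS023 and GSK-LSD1. The log2 fold changes were -0.27 ± 0.05 (SE, adjusted p = 0.00018) and -0.38 ± 0.05 (SE, adjusted p = 4.04e-06). With single agents it had 458, 456 and 445 CPM (PRT220), 458, 466 and 446 (GSK-LSD1) and 470.3, 446 and 459.9 (MS023), none called. The PRT220 and GSK-LSD1 libraries were nevertheless all below every DMSO library, and MS023 overlapped with DMSO. HNRNPA2B1 (ENSG00000122566, chr7:26173057-26201529), an abundant binder of UAG motifs and a substrate of PRMT1, had 968, 855 and 846 CPM in DMSO, 753, 651 and 689.7 with MS023 and GSK-LSD1 and 732, 684 and 735 with MC4455. The log2 fold changes were -0.35 ± 0.06 (SE, adjusted p = 6.05e-05) and -0.31 ± 0.06 (SE, adjusted p = 0.000464). With GSK-LSD1 alone it had 778, 778 and 732 CPM, -0.22 ± 0.06 (SE, adjusted p = 0.00587). The HNRNPA2B1 call in level with GSK-LSD1 was lost without DMSO A (-0.16, adjusted p = 0.0526). DMSO A was well above the other DMSO libraries for this gene.

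HNRNPAB fell most with the code-named compounds. HNRNPAB (ENSG00000197451, chr5:178204507-178211163) had 245, 209 and 209.9 CPM in DMSO, 159, 157 and 197 with MC4491 and 197, 159 and 181 with MC4455. The log2 fold changes were -0.37 ± 0.08 (SE, adjusted p = 0.00252) and -0.31 ± 0.08 (SE, adjusted p = 0.00697). The HNRNPAB call in level with MC4455 was lost without DMSO A (-0.23, adjusted p = 0.0516). HNRNPM, a GU-rich motif binder, had 306, 273 and 304 CPM in DMSO and 253, 222 and 255 with MC4455 (-0.27 ± 0.06 (SE, adjusted p = 0.00258)). HNRNPDL, a paralog of HNRNPD, had 340.1, 320.1 and 316 CPM in DMSO and 282, 272 and 283 with MC4455 (-0.22 ± 0.04 (SE, adjusted p = 0.00015)). Both treated groups lay wholly below DMSO.

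The most abundant member, HNRNPA1, antagonises SRSF1 at many exons and is a substrate of PRMT1 and PRMT5. It had 1406, 1385 and 1409 CPM in DMSO, 1311, 1182 and 1219 with MC4455 and 1509.6, 1576 and 1469 with MS023 and GSK-LSD1. These moved in opposite directions, -0.18 ± 0.05 (SE, adjusted p = 0.00612) and 0.12 ± 0.05 (SE, adjusted p = 0.0476). HNRNPA1 was not called in level with MS023 and GSK-LSD1 without DMSO A, DMSO B, DMSO C, MS023 with GSK-LSD1 A or MS023 with GSK-LSD1 B, left out singly (0.09 to 0.12, adjusted p = 0.0637 to 0.142). HNRNPA1 has 75 annotated pseudogenes, which together held 1.12% as many reads as the gene, so its counts may be shared with copies. PTBP1 (ENSG00000011304, chr19:797075-812327), the polypyrimidine tract repressor, had 652, 615 and 596 CPM in DMSO, 635, 649 and 637 with PRT220 and 509, 553 and 524 with MS023 and GSK-LSD1, where it fell (-0.23 ± 0.05 (SE, adjusted p = 0.000305)). With PRT220 it overlapped with DMSO.

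**Figure D2:**
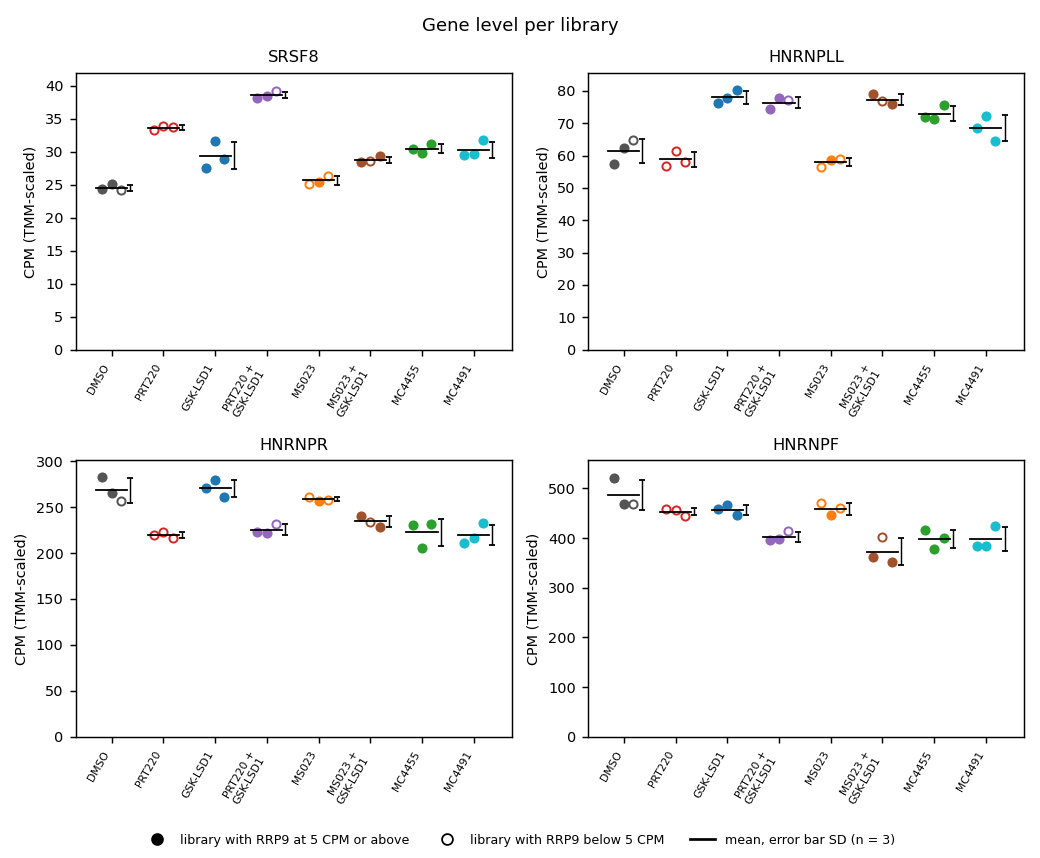
Gene level in TMM-scaled CPM (vertical axes from 0) of SRSF8, HNRNPLL, HNRNPR and HNRNPF in each library of the 8 groups, with open circles for the 8 libraries with RRP9 below 5 CPM, a line at the mean and the SD (n = 3) beside it. SRSF8 is highest with PRT220 and GSK-LSD1 at 38.1, 38.4 and 39.1 CPM, and HNRNPLL is high where GSK-LSD1 was given. HNRNPR is low with PRT220 alone, where every library has RRP9 below 5 CPM. With PRT220 and GSK-LSD1, HNRNPR is low in libraries of both RRP9 kinds.

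The share of reads on non-coding transcripts could be tested for 32 members, since HNRNPA0 and HNRNPH2 had no annotated non-coding transcript and PTBP3 had too few reads on them. The measure was the log2 ratio of non-coding to coding reads. With PRT220, 2 members rose and 1 fell (all 9121 genes tested: 4.57% and 1.53%). With PRT220 and GSK-LSD1, 4 rose and 1 fell (all genes 8.43% and 2.18%). MS023 with GSK-LSD1 had 2 higher and 1 lower (all genes 3.16% and 1.28%). MC4455 had 5 higher and none lower (all genes 8.42% and 0.91%), and MC4491 had 2 higher and none lower (all genes 4.7% and 0.559%). No member was called with GSK-LSD1 or MS023 by limma, with 1 and 2 at an unadjusted p below 0.05, where 0.296% and 0.0219% of all genes were called; edgeR's exon-level alternative, diffSpliceDGE, also called none. The members' medians were close to those of all genes: 0.12 against 0.14 with PRT220 and GSK-LSD1, and 0.24 against 0.22 with MC4455.

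HNRNPH1 had the largest and most repeated change. HNRNPH1 (ENSG00000169045, chr5:179614178-179634784) binds G-runs like HNRNPF. Its non-coding share was 58.8, 60.8 and 55.9% in DMSO, 66.0, 71.1 and 77.2% with PRT220, 76.2, 72.7 and 70.0% with PRT220 and GSK-LSD1, 71.0, 75.1 and 71.2% with MC4455 and 71.7, 68.5 and 67.1% with MC4491. None of these groups overlapped with DMSO. The log2 ratio rose by 0.84 ± 0.17 (SE, adjusted p = 0.0038), 0.94 ± 0.17 (SE, adjusted p = 0.00121), 0.90 ± 0.17 (SE, adjusted p = 0.00324) and 0.67 ± 0.17 (SE, adjusted p = 0.0251). With GSK-LSD1 it was 64.1, 61.4 and 62.4%, with MS023 59.6, 65.2 and 57.2% and with both 65.5, 62.1 and 67.1%, not called.

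In HNRNPH1 the 2 kinds of non-coding transcript moved oppositely. Retained introns made up 52.8% of its reads in DMSO and 67.5%, 69.1%, 68.1% and 65.1% in those 4 groups, while nonsense-mediated decay transcripts went from 4.93% to 2.99%, 2.75%, 3.37% and 2.95%. Its gene level was 791, 755 and 722 CPM in DMSO, 774, 809 and 857 with PRT220, 875, 823 and 792 with PRT220 and GSK-LSD1, 798, 759 and 802 with MC4455 and 743, 778 and 792 with MC4491. The log2 fold changes were 0.11, 0.13, 0.06 and 0.03, of which the combination's was called (adjusted p = 0.0164). HNRNPH1 was not called in level with PRT220 and GSK-LSD1 without DMSO B, DMSO C or PRT220 with GSK-LSD1 A, left out singly (0.09 to 0.12, adjusted p = 0.0639 to 0.129). That call was also lost with no filter on low counts (0.12, adjusted p = 0.0530) and with only the groups compared (0.12, adjusted p = 0.103). The reads on coding transcripts alone were lower by 0.44 (PRT220), 0.49 (PRT220 and GSK-LSD1), 0.53 (MC4455) and 0.39 (MC4491) on the log2 scale of group means. HNRNPH1 was not called in share with MC4491 without DMSO A, DMSO C, MC4491 A or MC4491 B, left out singly (0.58 to 0.69, adjusted p = 0.0541 to 0.11). The other 3 calls held when any single library was left out. With nonsense-mediated decay transcripts alone over coding reads, the values were -0.17, -0.22, 0.04 and -0.31, not called.

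TRA2A moved like HNRNPH1. Its non-coding share was 13.6, 13.7 and 12.9% in DMSO, 18.5, 17.7 and 20.7% with PRT220, 21.3, 18.8 and 18.7% with PRT220 and GSK-LSD1, 18.7, 20.7 and 21.5% with MC4455 and 19.4, 19.4 and 18.7% with MC4491, again without overlap. The log2 ratio rose by 0.60 ± 0.13 (SE, adjusted p = 0.00769), 0.65 ± 0.13 (SE, adjusted p = 0.00308), 0.71 ± 0.13 (SE, adjusted p = 0.00289) and 0.62 ± 0.13 (SE, adjusted p = 0.0106). The TRA2A call in share with PRT220 was lost without PRT220 C (0.52, adjusted p = 0.0541). With counts divided by transcript length the 4 values were 0.35, 0.42, 0.46 and 0.44, none called (adjusted p = 0.184, 0.0666, 0.0514 and 0.0842). GSK-LSD1 alone had 14.5, 13.3 and 13.5%, overlapping with DMSO.

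SRSF6 and SRSF7 rose in share with PRT220 and GSK-LSD1, through nonsense-mediated decay transcripts. SRSF6 had 8.81, 10.1 and 9.92% in DMSO, 12.9, 13.1 and 13.1% with PRT220 and 14.1, 13.1 and 15.5% with the combination. Only the combination was called (0.64 ± 0.17 (SE, adjusted p = 0.0176), against 0.49 ± 0.17 (SE, adjusted p = 0.0932) with PRT220), and its difference from PRT220 was not called. SRSF6 was not called in share with PRT220 and GSK-LSD1 without DMSO A, PRT220 with GSK-LSD1 A or PRT220 with GSK-LSD1 C, left out singly (0.56 to 0.65, adjusted p = 0.0515 to 0.0741). Without the libraries' median log2 ratio the value was 0.51, adjusted p = 0.0517. MS023 with GSK-LSD1 gave 5.10, 7.16 and 9.71%, widely spread and not called. SRSF7 had 34.9, 36.3 and 32.7% in DMSO and 41.9, 42.8 and 40.6% with the combination (0.44 ± 0.11 (SE, adjusted p = 0.0176)). SRSF7 was not called in share with PRT220 and GSK-LSD1 without DMSO C, PRT220 with GSK-LSD1 A or PRT220 with GSK-LSD1 B, left out singly (0.37 to 0.43, adjusted p = 0.0542 to 0.0901).

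A lower share was found in SRSF1 and SRSF2. SRSF1 had 23.9, 21.5 and 23.9% in DMSO, 19.4, 19.6 and 19.6% with PRT220 and GSK-LSD1 and 18.7, 20.1 and 17.1% with MS023 and GSK-LSD1, changes of -0.31 ± 0.10 (SE, adjusted p = 0.0466) and -0.39 ± 0.10 (SE, adjusted p = 0.0274). SRSF1 was not called in share with PRT220 and GSK-LSD1 without DMSO A, DMSO C, PRT220 with GSK-LSD1 A, PRT220 with GSK-LSD1 B or PRT220 with GSK-LSD1 C, left out singly (-0.27 to -0.31, adjusted p = 0.0854 to 0.154). SRSF1 was not called in share with MS023 and GSK-LSD1 without DMSO A, DMSO C, MS023 with GSK-LSD1 A or MS023 with GSK-LSD1 C, left out singly (-0.32 to -0.40, adjusted p = 0.0803 to 0.152). SRSF2 had 8.45, 8.05 and 8.47% in DMSO and 6.13, 6.498 and 6.85% with PRT220, -0.39 ± 0.10 (SE, adjusted p = 0.0198), the same treatment in which its gene level was higher. SRSF2 was not called in share with PRT220 without DMSO A, DMSO C, PRT220 A or PRT220 B, left out singly (-0.34 to -0.39, adjusted p = 0.0599 to 0.0767). With the RRP9 term the SRSF2 value was -0.30 (adjusted p = 0.0822).

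In HNRNPA2B1, SRSF4 and SRSF10 the change lay in retained introns. HNRNPA2B1 had 24.8, 27.6 and 25.8% in DMSO, 31.7, 30.3 and 34.7% with MS023 and GSK-LSD1 and 30.4, 34.3 and 31.5% with MC4455, rises of 0.43 ± 0.11 (SE, adjusted p = 0.0311) and 0.42 ± 0.11 (SE, adjusted p = 0.0207). These are the groups in which its gene level fell most. The median change of the log2 ratio over all genes was 0.15 with MS023 and GSK-LSD1 and 0.22 with MC4455. HNRNPA2B1 was not called in share with MS023 and GSK-LSD1 without DMSO A, DMSO C, MS023 with GSK-LSD1 A or MS023 with GSK-LSD1 C, left out singly (0.35 to 0.45, adjusted p = 0.0803 to 0.173). HNRNPA2B1 was not called in share with MC4455 without DMSO A, DMSO C, MC4455 B or MC4455 C, left out singly (0.34 to 0.44, adjusted p = 0.0525 to 0.109). SRSF4 had 45.2, 45.5 and 39.5% in DMSO and 51.5, 57.3 and 58.3% with MC4455 (0.72 ± 0.18 (SE, adjusted p = 0.0169)). SRSF4 was not called in share with MC4455 without DMSO C, MC4455 B or MC4455 C, left out singly (0.60 to 0.67, adjusted p = 0.0718 to 0.0869). DMSO C, the lowest of its group here, is the DMSO library with low RRP9, and the share of SRSF4 was among those called for the RRP9 split.

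SRSF10 rose in share with MS023 and GSK-LSD1 from 33.5, 34.4 and 33.8% to 37.5, 37.9 and 41.2%, 0.31 ± 0.08 (SE, adjusted p = 0.0259). SRSF10 was not called in share with MS023 and GSK-LSD1 without DMSO A, DMSO C or MS023 with GSK-LSD1 C, left out singly (0.24 to 0.30, adjusted p = 0.0791 to 0.152). SRSF11 rose with MC4455 from 50.2, 53.3 and 49.8% to 56.4, 57.5 and 54.5%, mostly processed transcripts, 0.29 ± 0.09 (SE, adjusted p = 0.0399). SRSF11 was not called in share with MC4455 without DMSO A, DMSO C, MC4455 A, MC4455 B or MC4455 C, left out singly (0.25 to 0.34, adjusted p = 0.0531 to 0.153). With the RRP9 term the SRSF11 value was 0.25 (adjusted p = 0.0683). Over all genes tested, the median change of the log2 ratio was 0.22 with MC4455 and 0.15 with MS023 and GSK-LSD1. TRA2B, with the highest share of all, ranged from 79.6% to 85.4% over the 24 libraries and was never called.

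**Figure D3:**
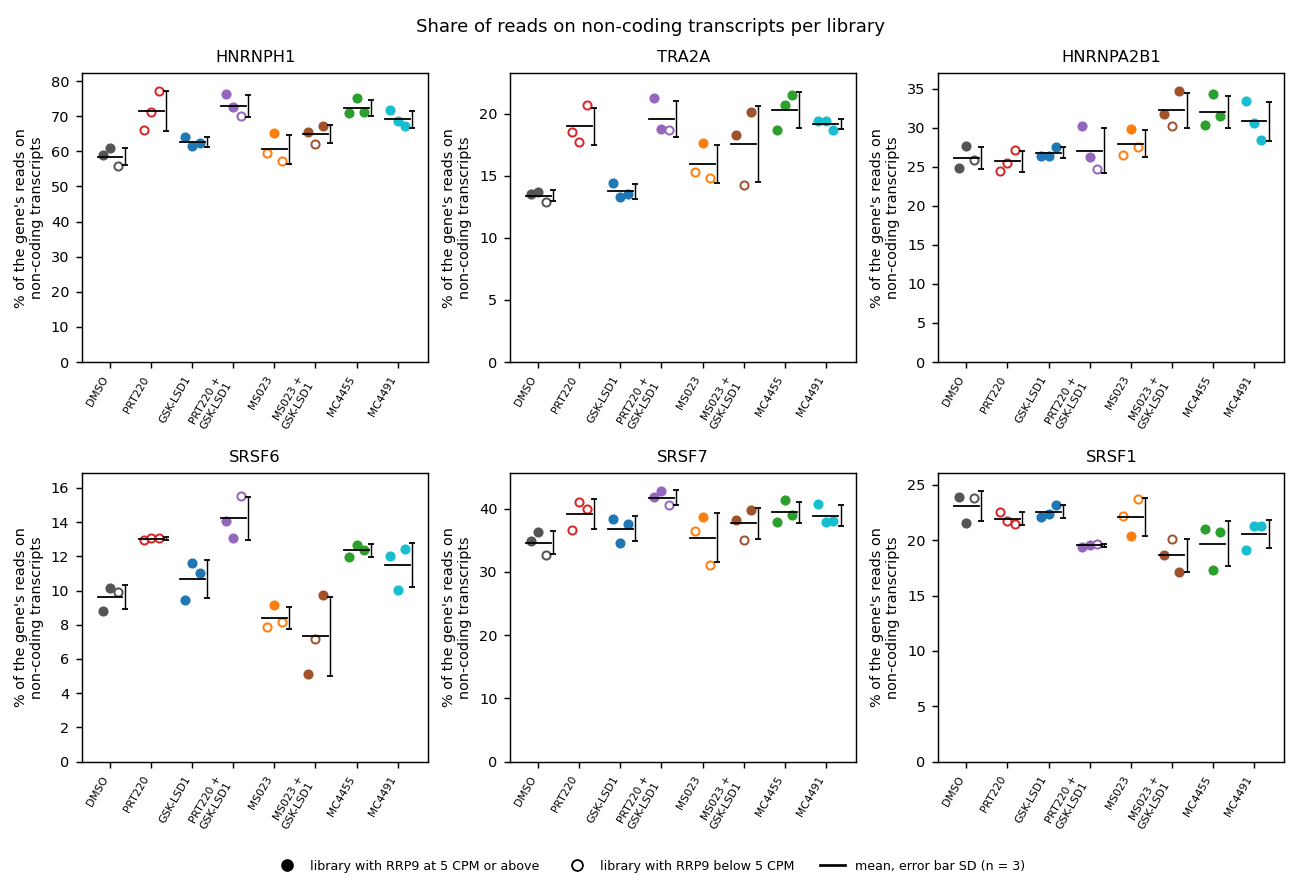
Percent of a gene's reads on non-coding transcripts (vertical axes from 0) for 6 members in each library of the 8 groups, with open circles for libraries with RRP9 below 5 CPM, a line at the mean and the SD (n = 3). HNRNPH1 and TRA2A are higher than DMSO in every library with PRT220, the PRT220 combination, MC4455 and MC4491, and SRSF1 is lower in every library of both combinations.

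Across the members, changes in gene level and in share were at most weakly correlated, and the gene level itself also counts the non-coding reads. Over the 32 members, Pearson's r between the log2 change in level and in share was 0.14 with PRT220, 0.02 with GSK-LSD1, 0.08 with both, -0.30 with MS023, -0.15 with MS023 and GSK-LSD1, 0.26 with MC4455 and 0.18 with MC4491. These are correlations across genes, which share libraries and depth and are not replicates, so they are given as descriptions. Counting signs, most of them of changes not called, a lower level together with a higher share was found in 9 of 32 members with PRT220 (28.1%, against 26.2% of all 9118 genes with both measures), 17 with GSK-LSD1 (53.1% against 29.4%) and 14 with both (43.8% against 32.9%). It was found in 11 with MS023 (34.4% against 30.7%), 18 with MS023 and GSK-LSD1 (56.2% against 35.7%), 19 with MC4455 (59.4% against 39.3%) and 18 with MC4491 (56.2% against 36.8%). With MC4455, the share was higher in 19 and lower in 6 of the members with a lower level. Among those with a higher level, it was higher in 6 and lower in 1. The percentages depend on how many members had a lower level or a higher share, and a link between level and share was not tested. Members called in both measures were few: in PRT220 with GSK-LSD1 these were HNRNPH1 (level 0.13, ratio 0.94), TRA2A (-0.10 and 0.65), SRSF6 (-0.16 and 0.64) and SRSF1 (-0.11 and -0.31). With MC4455 they were TRA2A and HNRNPA2B1, with MC4491 TRA2A, with MS023 and GSK-LSD1 HNRNPA2B1, SRSF10 and SRSF1, and with PRT220 SRSF2.

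**Figure D4:**
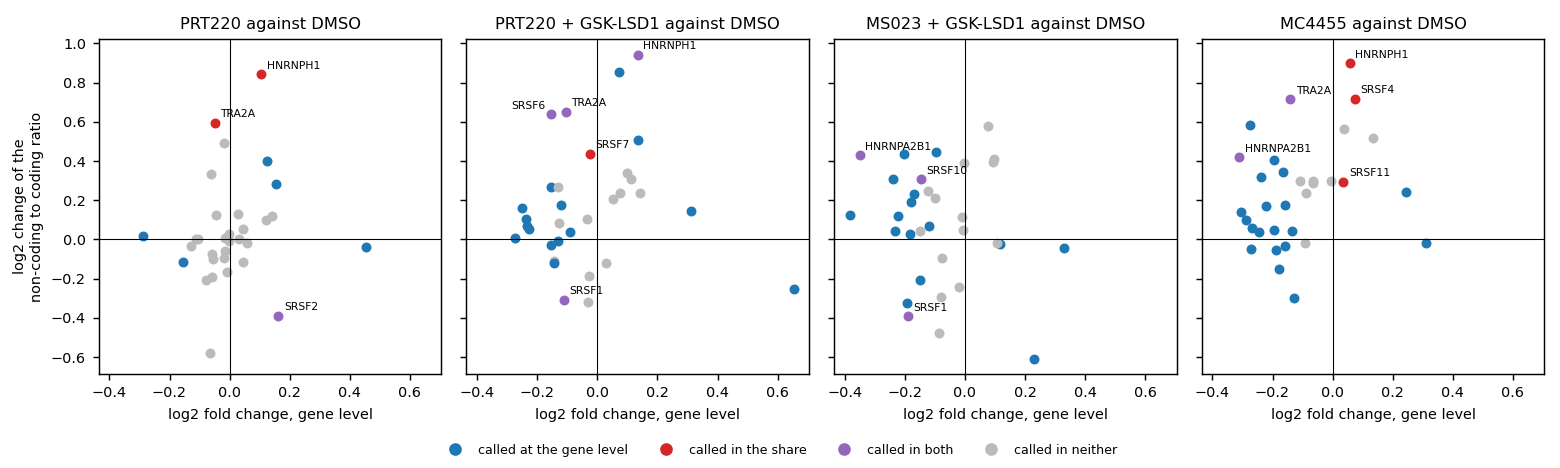
Log2 change of the non-coding to coding ratio (vertical) against the log2 fold change of the gene level (horizontal) for 32 members in 4 of the 7 comparisons with DMSO, coloured by which of the measures was called. HNRNPH1 sits at the top with little change in level, most points of MC4455 lie left of 0, and no panel shows points along a line.

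Single transcripts gave more calls in number than the summed share, with 376 transcripts tested against 32 shares. Usage was tested as a transcript's log2 change relative to its gene, for 376 transcripts of 33 members. With PRT220, 39 were called, 20 higher and 19 lower, in 18 genes, where 4.17% of all 74383 transcripts tested were called in either direction. PRT220 with GSK-LSD1 had 42 (20 higher, 22 lower, 23 genes, all transcripts 4.76%). MC4455 had 36 in 20 genes (all transcripts 3.29%), MC4491 28 in 15 (all transcripts 2.67%) and MS023 with GSK-LSD1 23 in 14 (all transcripts 2.79%). GSK-LSD1 alone had 7 in 6 genes and MS023 alone 5 in 4, against 1.01% and 0.756% of all transcripts.

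Several of these calls concern a single alternative segment of the coding sequence, so the share of reads on annotated transcripts that hold the segment, among those that hold or skip it, was also computed. The segments were chosen after the transcript values were seen, and their percentages are descriptions without a test. The sequences below show what differs between the transcripts, taken 5′ to 3′ from GENCODE 29 transcripts on GRCh38. Capitals mark the segment, and the 12 lower-case bases on each side are the neighbouring exonic sequence.
PTBP1, 78-base exon, chr19:805492-805569, plus strand: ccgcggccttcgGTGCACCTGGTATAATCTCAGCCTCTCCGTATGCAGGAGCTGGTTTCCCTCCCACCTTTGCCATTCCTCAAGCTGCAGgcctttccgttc
HNRNPC, 39-base segment, chr14:21230958-21230996, minus strand: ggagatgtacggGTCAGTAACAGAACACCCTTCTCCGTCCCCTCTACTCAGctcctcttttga
HNRNPD, 57-base exon, chr4:82371528-82371584, minus strand: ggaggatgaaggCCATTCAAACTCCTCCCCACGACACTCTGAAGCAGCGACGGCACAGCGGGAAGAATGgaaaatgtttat
HNRNPD, 147-base exon, chr4:82356537-82356683, minus strand: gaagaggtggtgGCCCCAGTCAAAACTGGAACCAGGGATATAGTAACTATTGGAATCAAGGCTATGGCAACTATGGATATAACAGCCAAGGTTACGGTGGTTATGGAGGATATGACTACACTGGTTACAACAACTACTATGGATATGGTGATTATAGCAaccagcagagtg
HNRNPR, 9-base segment, chr1:23318689-23318697, minus strand: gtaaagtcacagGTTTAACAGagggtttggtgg
HNRNPH1, 139-base exon, chr5:179619269-179619407, minus strand: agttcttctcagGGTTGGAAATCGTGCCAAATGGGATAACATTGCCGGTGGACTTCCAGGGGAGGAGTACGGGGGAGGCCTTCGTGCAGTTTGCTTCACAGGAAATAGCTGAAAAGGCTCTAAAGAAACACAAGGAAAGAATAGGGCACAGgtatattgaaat

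The PTBP1 exon of 78 bases, 26 codons, encodes part of the linker between the second and the third RNA recognition motif, and its skipping is known to weaken the protein as a repressor. Inclusion was 58.4, 57.7 and 56.0% in DMSO, 46.3, 44.6 and 41.4% with PRT220 and 46.3, 45.03 and 45.6% with PRT220 and GSK-LSD1. GSK-LSD1 alone left it at 56.6, 55.7 and 57.1%, within or near the DMSO range, MC4455 had 51.3, 50.9 and 50.4% and MC4491 54.0, 52.2 and 53.9%. PTBP1-201 and PTBP1-203 showed the same in the test. PTBP1-201, which skips the exon, went from 32.5, 34.2 and 34.9% of the gene's reads in DMSO to 45.3, 45.7 and 48.2% with PRT220, a usage change of 0.70, adjusted p = 8.33e-10, and PTBP1-203, which holds it, from 35.7, 39.7 and 38.0% to 23.5, 25.3 and 24.5% (-0.85, adjusted p = 1.81e-12). PTBP1-202, which also holds the exon, went the other way, from 11.2, 7.84 and 7.77% to 14.5, 11.6 and 9.11%. The groups overlapped, and its call in usage with PRT220 was kept by 4 of 8 alternatives. PTBP1 did not change in gene level with PRT220 by the test (log2 fold change 0.04, adjusted p = 0.544).

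HNRNPC (ENSG00000092199, chr14:21209136-21269494) makes the C1 and C2 forms of a core hnRNP that binds U-tracts, and these differ by the 13 codons of the 39-base segment, an alternative splice donor. The longer form's share was 40.9, 42.1 and 44.5% in DMSO, 58.2, 61.5 and 60.2% with PRT220, 55.9, 55.7 and 54.9% with PRT220 and GSK-LSD1, 50.1, 48.6 and 49.7% with MC4455 and 48.7, 49.8 and 49.7% with MC4491. It was lower than every DMSO library with MS023 and GSK-LSD1 (37.0, 40.6 and 38.2%) and overlapped with DMSO for GSK-LSD1 (41.4, 42.0 and 43.3%) and MS023 (41.0, 41.3 and 43.3%). HNRNPC-205, the main transcript without the segment, fell with PRT220 from 34.1, 35.1 and 33.9% to 23.8, 18.7 and 18.9% (-0.94, adjusted p = 1.55e-16). HNRNPC-211 and HNRNPC-230, which hold it, rose by 0.72 and 1.37 on the log2 scale. With MS023 and GSK-LSD1, HNRNPC-211 fell from 27.5, 27.2 and 28.97% to 21.4, 23.0 and 21.4% (-0.46, adjusted p = 0.00157). HNRNPC was one of the members whose gene level was never called.

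HNRNPD (ENSG00000138668, chr4:82352498-82374503) encodes AUF1, which binds AU-rich elements in messages, and its forms differ by the 57-base and the 147-base exon. HNRNPD-201, with both exons, had 22.9, 21.8 and 23.4% of the gene's reads in DMSO and 29.3, 29.9 and 30.4% with MS023 (0.53, adjusted p = 0.000424). HNRNPD-202, without the 57-base exon, went from 28.0, 30.6 and 33.6% to 23.7, 22.8 and 26.0% (-0.48, adjusted p = 0.00165). HNRNPD-202 also fell with PRT220 (-0.44), PRT220 and GSK-LSD1 (-0.52), MS023 and GSK-LSD1 (-0.61) and MC4455 (-0.43). Inclusion of the 57-base exon was 69.1, 65.8 and 62.9% in DMSO, 73.8, 74.1 and 71.6% with MS023, 70.5, 73.2 and 75.0% with PRT220 and 73.6, 73.6 and 76.2% with MS023 and GSK-LSD1. It was also above every DMSO library with PRT220 and GSK-LSD1 (74.2, 72.8 and 72.9%) and MC4455 (72.2, 72.2 and 70.4%), and overlapped with DMSO for GSK-LSD1 and MC4491. Inclusion of the 147-base exon was 55.5, 58.0 and 62.5% in DMSO and 52.2, 53.2 and 49.5% with PRT220, and overlapped with DMSO in the other 6 treated groups.

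The 9 bases of HNRNPR, an alternative donor, were included in 28.6, 28.8 and 25.2% of reads in DMSO and 22.8, 23.0 and 23.5% with PRT220. They overlapped with DMSO for PRT220 and GSK-LSD1 (27.4, 28.5 and 25.5%) and were above every DMSO library with MS023 and GSK-LSD1 (28.8, 29.2 and 31.4%) and MC4491 (30.9, 30.2 and 30.8%). HNRNPR-203, which holds them, fell with PRT220 from 13.3, 12.7 and 12.2% to 10.6, 6.63 and 6.41% (-0.79, adjusted p = 0.0173). HNRNPR-203 was not called in usage with PRT220 without DMSO A, PRT220 B or PRT220 C, left out singly (-0.68 to -0.73, adjusted p = 0.0563 to 0.135). It was also called with PRT220 and GSK-LSD1, against DMSO and against GSK-LSD1, each kept by 8 of 9 alternatives. In that group inclusion of the 9 bases overlapped with DMSO, so transcript and segment did not go together there. The 171-base exon of HNRNPDL, which codes for a tyrosine-rich stretch, was included in 82.7, 84.3 and 85.6% in DMSO and 93.2, 93.0 and 92.2% with PRT220 and GSK-LSD1. It was also above every DMSO library with PRT220 (89.7, 88.7 and 90.6%), MC4455 (90.2, 92.9 and 91.7%) and MC4491 (96.3, 91.8 and 87.2%). GSK-LSD1, MS023 and MS023 with GSK-LSD1 overlapped with DMSO. HNRNPDL-207, the transcript without the exon, fell with PRT220 and GSK-LSD1 from 17.3, 15.7 and 14.4% to 6.78, 6.98 and 7.78% (-1.33, adjusted p = 0.000327). It was also called in usage with MC4455 and MC4491, each kept by 8 of 9 alternatives. The 36-base exon of HNRNPA2B1, which makes the B1 form instead of A2, went from 11.8, 12.3 and 11.96% in DMSO to 14.2, 17.2 and 14.8% with MC4455 as a description. Inclusion was also above every DMSO library with MC4491 (16.3, 14.8 and 13.8%) and MS023 and GSK-LSD1 (14.8, 14.7 and 15.6%). The same held for MS023 (12.8, 13.9 and 13.4%) and PRT220 and GSK-LSD1 (13.9, 13.4 and 13.1%). PRT220 alone and GSK-LSD1 alone overlapped with DMSO.

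HNRNPH1 transcripts followed its share. The retained-intron transcript HNRNPH1-206 went from 7.13, 7.29 and 7.02% of the gene's reads in DMSO to 12.53, 13.0 and 14.4% with PRT220 (0.96, adjusted p = 4.12e-07) and rose with the PRT220 combination (0.96), MC4455 (0.82) and MC4491 (0.71). The coding transcript HNRNPH1-204 fell from 15.8, 11.4 and 10.4% to 6.01, 6.19 and 4.82% (-1.21, adjusted p = 5.02e-10). HNRNPH1-218, a decay transcript that skips the 139-base exon, whose length is not a multiple of 3, fell from 4.19, 4.71 and 4.16% to 2.41, 2.697 and 2.16% (-0.91, adjusted p = 0.00321). In TRA2A, the retained-intron transcript TRA2A-209 rose from 7.61, 7.51 and 7.84% to 13.1, 12.6 and 15.5% with PRT220 (0.86, adjusted p = 0.00228).

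Poison exons are the textbook switch of SR genes, and their coding part is printed up to the premature stop, which is in capitals.
TRA2B, chr3:185931772-185931852, minus strand: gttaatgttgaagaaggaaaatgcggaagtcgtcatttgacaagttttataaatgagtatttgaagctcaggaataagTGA
SRSF3, chr6:36599821-36599854, plus strand: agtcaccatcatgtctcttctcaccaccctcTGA
SRSF6, chr20:43459153-43459304, plus strand: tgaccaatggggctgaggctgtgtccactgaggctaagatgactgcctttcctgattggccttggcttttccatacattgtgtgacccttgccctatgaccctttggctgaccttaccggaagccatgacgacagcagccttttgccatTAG
SRSF7, chr2:38749319-38749346, minus strand: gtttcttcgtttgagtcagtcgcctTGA
The TRA2B exon is held by TRA2B-206, the gene's only annotated decay transcript, and by TRA2B-210 and TRA2B-214. Its inclusion thus also counts reads on transcripts of other types. Inclusion of the TRA2B exon was 60.9, 61.5 and 61.3% in DMSO, 58.8, 57.3 and 59.5% with PRT220, 59.0, 60.8 and 59.2% with GSK-LSD1 and 60.9, 57.2 and 58.9% with both. It was 60.5, 58.1 and 59.9% with MS023 and GSK-LSD1 and 59.9, 60.8 and 60.5% with MC4455, and all 5 groups lay below every DMSO library, PRT220 with GSK-LSD1 A by the least (60.891% against 60.897% in DMSO A). MS023 (61.9, 60.4 and 60.7%) and MC4491 (61.5, 60.3 and 57.9%) overlapped with DMSO. The decay transcript TRA2B-206, which holds it, fell from 9.70, 10.2 and 13.2% of the gene's reads to 5.06, 5.22 and 6.36% with MC4491 (-1.05, adjusted p = 8.36e-06) and 7.32, 3.92 and 6.54% with MC4455 (-0.99, adjusted p = 2.5e-05). In each of the 4 groups that held both kinds of library, those with low RRP9 had the highest share of TRA2B-206, and with the RRP9 term its changes were -0.89 (adjusted p = 8.04e-06) with MC4491 and -0.83 (adjusted p = 3.36e-05) with MC4455. SRSF6-202, the only annotated SRSF6 transcript with its poison exon, rose from 8.81, 10.1 and 9.92% to 14.1, 13.1 and 15.5% with PRT220 and GSK-LSD1 (0.63, adjusted p = 0.00471). The SRSF6-202 call in usage with PRT220 and GSK-LSD1 was lost without PRT220 with GSK-LSD1 C (0.55, adjusted p = 0.0578). The SRSF3 exon stayed low, 3.71, 3.94 and 3.57% in DMSO and 3.27, 4.06 and 2.73% with MC4455, where the gene's level fell. With PRT220 and GSK-LSD1, where the level also fell, it was above every DMSO library (4.44, 4.22 and 3.95%). With PRT220 alone it was below every DMSO library (3.47, 3.43 and 3.38%), and the other treated groups overlapped with DMSO. Inclusion of the SRSF7 exon was 10.2, 11.4 and 10.2% in DMSO and 13.2, 13.7 and 10.6% with PRT220 and GSK-LSD1. It overlapped with DMSO in every treated group. For SRSF6, 82.4% of the gene's reads were on transcripts that could be paired with the annotation.

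The remaining called transcripts mark other members. SRSF1-201, the main coding transcript of SRSF1, rose from 35.3, 39.2 and 37.8% to 48.0, 46.9 and 44.3% with PRT220 and GSK-LSD1 (0.54, adjusted p = 2.61e-05), in the group where its non-coding share fell. SRSF10-204 fell from 10.5, 9.30 and 10.9% to 5.23, 6.64 and 4.65% with MS023 and GSK-LSD1 (-0.96, adjusted p = 6.44e-11). HNRNPU-203, a retained-intron transcript of the scaffold attachment protein HNRNPU, rose from 16.8, 16.5 and 14.2% to 21.5, 27.2 and 24.3% with MC4455 (0.74, adjusted p = 3.72e-05). SRSF11-202, a coding transcript, fell from 20.4, 19.6 and 22.6% to 13.7, 16.8 and 15.2% with PRT220 (-0.53, adjusted p = 0.000375). HNRNPU and SRSF11 were never called at the gene level.

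**Figure D5:**
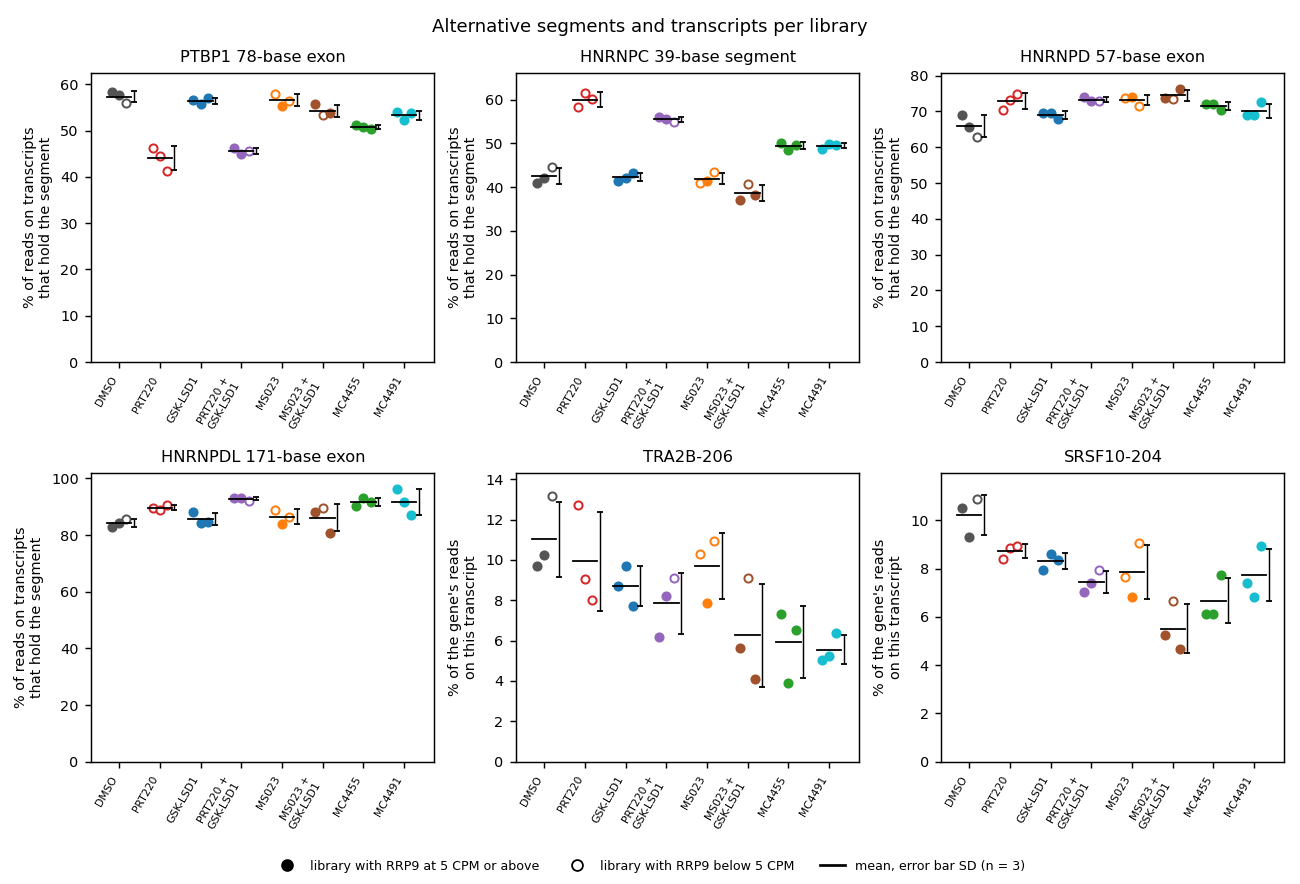
Percent of reads on transcripts that hold an alternative segment (4 panels) and percent of a gene's reads on TRA2B-206 and SRSF10-204, per library of the 8 groups, with open circles for libraries with RRP9 below 5 CPM, a line at the mean and the SD (n = 3). The PTBP1 exon is lowest with PRT220 (46.3, 44.6 and 41.4%) and the HNRNPC segment highest (58.2, 61.5 and 60.2%), and both single-agent groups without PRT220 sit near DMSO.

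Adding GSK-LSD1 to PRT220 lowered more members than it raised. Against PRT220 alone, 3 members rose and 8 fell at the gene level (all genes 19.4% and 18.8%). HNRNPLL (0.38) and SRSF8 (0.20) rose, and SRSF2 (-0.19), PTBP1 (-0.19) and TRA2B (-0.17) were among those that fell. Here the RRP9 split runs along the groups, and with its term 5 members were called. SRSF3, SRSF4, SRSF6, SRSF7, SRSF9 and HNRNPF lost their call with it.

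Against GSK-LSD1 alone, 3 rose and 3 fell (all genes 7.01% and 8.34%). SRSF8 (0.39) and HNRNPR (-0.26) led, and with the RRP9 term 11 members were called. HNRNPH3, which had 123, 127 and 119.8 CPM with GSK-LSD1 and 145, 146 and 144 with both, rose by 0.24 ± 0.07 (SE, adjusted p = 0.0173). HNRNPH3 was not called in level against GSK-LSD1 without GSK-LSD1 C or PRT220 with GSK-LSD1 B, left out singly (0.22 to 0.23, adjusted p = 0.0572 to 0.0692). In share, HNRNPH1 (0.69) and TRA2A (0.61) rose against GSK-LSD1 (2 of 32 members, none lower, all genes 3.4% and 0.548%). HNRNPH1 was not called in share against GSK-LSD1 without GSK-LSD1 B, GSK-LSD1 C, PRT220 with GSK-LSD1 A or PRT220 with GSK-LSD1 B, left out singly (0.57 to 0.71, adjusted p = 0.0584 to 0.117). The TRA2A call in share against GSK-LSD1 was lost without PRT220 with GSK-LSD1 A (0.53, adjusted p = 0.0631). Against PRT220 no share was called by limma, 6 had an unadjusted p below 0.05 and diffSpliceDGE called 2, where 0.526% of all genes were called. In usage, 8 transcripts differed from PRT220 and 21 from GSK-LSD1 (all transcripts 1.16% and 2.05%).

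Whether the agents added up on the log2 scale was tested by the interaction. At the gene level no member was called by edgeR or DESeq2 and 1 had an unadjusted p below 0.05, SRSF2 with -0.14, where 0.541% of all genes were called. In share no member was called by limma or diffSpliceDGE, 1 had an unadjusted p below 0.05 and 0% of all genes were called. In usage 4 transcripts of 3 members were called (all transcripts 0.539%), and these are described with their reads in the closing section.

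The genes around the members were read from named lists. Of 10 kinases and carriers of SR proteins, which phosphorylate and import them, 2 rose and 4 fell with PRT220 and GSK-LSD1 (all genes 24.4% and 22.1%), and 2 rose and 3 fell with MC4455 (all genes 18.5% and 19.2%). SRPK1, the main cytoplasmic SR protein kinase, had log2 fold changes of -0.23 with PRT220, -0.27 with GSK-LSD1, -0.48 with both and -0.46 with MS023 and GSK-LSD1, all called. PRPF4B, a nuclear kinase of the spliceosome, rose with PRT220 (0.41). Of 24 SR-related and exon definition factors tested, 9 rose and 1 fell with PRT220 (all genes 13.8% and 11.1%), among them SREK1 (0.35), and 3 rose and 7 fell with MC4455. LUC7L, a U1 snRNP associated factor, rose with PRT220 and GSK-LSD1 (0.52).

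Of 36 entries for other RNA-binding splicing regulators, 11 rose and 2 fell with GSK-LSD1 (all genes 17.6% and 15%) and 4 rose and 17 fell with MC4455 (all genes 18.5% and 19.2%). RBM47 (4.45) and MBNL2 (3.46) rose with GSK-LSD1 by far more than any SR or hnRNP gene. Of 17 nonsense-mediated decay and exon junction factors, 4 rose and 7 fell with PRT220 and GSK-LSD1 (all genes 24.4% and 22.1%), with UPF2 at -0.39 and SMG6 at 0.48. Of 13 arginine methyltransferases and cofactors, none rose and 7 fell with PRT220 and GSK-LSD1, with MC4455 and with MC4491 (all genes 15.5% and 15.2% in the last), and 1 rose and 8 fell with MS023 and GSK-LSD1 (all genes 25.1% and 23.3%). WDR77, the partner of PRMT5, had log2 fold changes of -0.30 with PRT220 and -0.48 with MC4455. MS023 alone called 1 gene in the list of other regulators and 1 in the decay list.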

How the data were processed

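RNA from 24 libraries of MV4-11 cells, 8 groups of 3, was read with unstranded 101-base reads after poly(A) selection, per the labels' protocols. The deposited values are estimated counts, in 1 table per gene and 1 per transcript, a unit read from the values, and the submitters' processing notes name GRCh38, DESeq2 1.28.1 in R 4.0.0, Salmon 1.2.1 and STAR 2.7.3a. The annotation release is not given in the sources used here. GENCODE 29 paired 167049 of 178398 transcripts with a type and exons, which held 96.6% to 96.8% of reads. No pair of libraries within a group held identical values.

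The gene counts were rounded and tested with edgeR 4.0.16 (R 4.3.3): TMM scaling, the tool's default filter on low counts (16640 genes kept), the quasi-likelihood test and all 24 libraries in 1 fit. The non-coding share was the log2 ratio of non-coding to coding counts with 0.5 added to each, for genes with at least 10 counts on both in at least 3 libraries (9121 genes), tested with limma 3.58.1 (trend and robust). Transcript usage was tested with voom and diffSplice over 74383 transcripts. P-values were adjusted by Benjamini-Hochberg over all features tested, and SE is the model's standard error. An exact permutation test of 3 against 3 libraries cannot go below 0.1, so single values were not tested apart from these fits. Reads are not independent molecules, and no interval from counting was used. Each fit was tested on simulated data.

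The members and lists were chosen with earlier results of these data known. Values per library are given for up to 4 called members in each direction per comparison with DMSO and per measure, for HNRNPA1, HNRNPA2B1, SRSF1, SRSF2, SRSF3, TRA2B, HNRNPDL and PTBP1, and for called transcripts with at least 5% of their gene's reads in 1 group. The text uses fewer, and other members and transcripts it names were chosen after their values were seen, as were the segments and the sequences. Alternatives were another scaling, DESeq2 1.42.0, other filters and pseudocounts, the groups compared alone, counts per transcript length, single transcript types, diffSpliceDGE, a block for the replicate letter, a term for the RRP9 split and each library left out. Removing each library's median log2 ratio, and all alternatives for usage, were added after the data were seen. Sequences come from GENCODE 29 transcripts.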

Additional observations from a re-analysis of the deposited data

Results flagged for a closer look

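Of the 3 measures, transcript usage alone held members whose response to PRT220 differed with and without GSK-LSD1 by the test of that difference itself, and 4 transcripts were called. PTBP1-202, a coding transcript with the 78-base exon, had 11.2, 7.84 and 7.77% of the gene's reads in DMSO A, B and C. It had 14.5, 11.6 and 9.11% with PRT220, 11.4, 11.2 and 11.2% with GSK-LSD1 and 5.37, 12.8 and 7.08% with both. The interaction was -1.09 on the log2 scale (limma diffSplice, adjusted p = 0.000875). The group with both agents was spread over the whole range of DMSO, and without its library A the value was -0.78 (adjusted p = 0.0889).

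HNRNPM-207, a processed transcript, was listed at 0 reads in DMSO A and in PRT220 with GSK-LSD1 C. Its other libraries of these groups held 593 and 1017 reads in DMSO, 450.1 and 419 with both agents, 609, 517 and 590 with PRT220 and 475, 819 and 601 with GSK-LSD1. The interaction was -6.52 (adjusted p = 8.08e-08), -3.67 without DMSO A and -3.01 without library C of the combination, still called. Each of these fits kept the other library listed at 0 reads, so neither shows whether the call depends on these libraries. A fit without both was not run. The usage calls of HNRNPM-207 against DMSO with PRT220, GSK-LSD1, MC4455 and MC4491 were lost without DMSO A (-0.11, 0.02, -0.04 and 0.22), and those of the combination against its single agents were lost without its library C (-0.13 against PRT220 and -0.27 against GSK-LSD1).

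HNRNPH1-215, a coding transcript, and HNRNPH1-219, a decay transcript, were both listed at 0 reads in DMSO B, and each held under 1% of the gene's reads in every library. HNRNPH1-215 had 64.5 and 251 reads in DMSO A and C, 250.3, 206 and 156 with PRT220, 90.7, 141 and 227 with GSK-LSD1 and 247, 83.9 and 127 with both. Its interaction was -4.14 (adjusted p = 0.00133), and -0.41 without DMSO B (adjusted p = 1). HNRNPH1-219 had 79.3 and 110 reads in DMSO A and C and 108 to 187 over the libraries of the other 3 groups. Its interaction was -3.95 (adjusted p = 0.0100), and -0.35 without DMSO B (adjusted p = 1).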

How the results depend on the processing

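Of 114 calls of members at the gene level, 59 held under every alternative run, as did 0 of 20 in the non-coding share and 64 of 142 in usage. No gene-level call changed sign. DESeq2 kept 111 of 114, the RRP9 term 105 of 114 and leaving out 1 library 564 of 684 repeats. In share, diffSpliceDGE kept 20 of 20, removing the library median 16 of 20, the RRP9 term 18 of 20 and leaving out 1 library 71 of 120. In usage the RRP9 term kept 131 of 142 and leaving out 1 library 655 of 864. Where a value moved, the cause was not tested unless fewer libraries or transcripts entered by construction. Percentages of all features called under the alternatives are not given in this section, so its counts describe the members' calls only.

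Counts of called members moved by over 1.5 times as follows. At the gene level, GSK-LSD1 had 5, and 9 with RLE size factors, 9 with no filter, 8 with only the groups compared and 10 with DESeq2. MC4491 had 24, and 12 with only the groups compared. The combination had 11 against PRT220, and 5 with the RRP9 term. Against GSK-LSD1 it had 6, and 11 both with the RRP9 term and with only the groups compared. In share, PRT220 had 3, and 1 per transcript length and 0 with decay transcripts only. PRT220 with GSK-LSD1 had 5, and 2 with decay transcripts left out, 3 with retained introns only, 2 with decay transcripts only, 8 with diffSpliceDGE and 3 in the RRP9-high libraries. MS023 with GSK-LSD1 had 3, and 0 with only the groups compared, 10 with diffSpliceDGE and 7 with the RRP9 term. MC4455 had 5, and 3 per transcript length, 0 with decay transcripts only, 11 with diffSpliceDGE and 3 in the RRP9-high libraries. MC4491 had 2, and 1 per transcript length, 0 with decay transcripts only, 6 with diffSpliceDGE and 4 with the library median removed. The combination against PRT220 had 0, and 2 with diffSpliceDGE. Against GSK-LSD1 it had 2, and 0 per transcript length, 0 with decay transcripts only and 4 with diffSpliceDGE. In usage, the RRP9 term left 3 of 7 transcripts with GSK-LSD1 and 2 of 4 in the interaction. The fit to RRP9-high libraries was not run for PRT220 alone, which has none.

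Leaving out 1 library at a time gave, at the gene level, 4 to 7 called members with PRT220, 2 to 10 with GSK-LSD1, 12 to 17 with both, 0 to 0 with MS023, 14 to 20 with MS023 and GSK-LSD1, 16 to 24 with MC4455, 13 to 23 with MC4491, 6 to 12 for the combination against PRT220, 4 to 6 against GSK-LSD1 and 0 in the interaction. In share the ranges in the same order were 2 to 3, 0 to 0, 2 to 5, 0 to 0, 0 to 7, 2 to 6, 0 to 3, 0 to 0, 0 to 2 and 0 to 0. In usage they were 24 to 37, 4 to 6, 27 to 39, 3 to 8, 14 to 27, 25 to 38, 15 to 28, 3 to 6, 12 to 16 and 2 to 6 transcripts.

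Values that changed sign were all uncalled after the change. With decay transcripts only, HNRNPH1 was -0.17 with PRT220, -0.22 with PRT220 and GSK-LSD1, -0.31 with MC4491 and -0.29 for the combination against GSK-LSD1, SRSF11 was -0.46 and HNRNPA2B1 -0.10 with MC4455, and TRA2A was -0.031 for the combination against GSK-LSD1. SRSF1 was 0.57 with PRT220 and GSK-LSD1 and 0.29 with MS023 and GSK-LSD1 with decay transcripts left out, and 0.65 and 0.31 with retained introns only. HNRNPM-207 was -0.11 with PRT220 and -0.038 with MC4455 without DMSO A, and at most 4.21 and 4.29 without another library.

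The letters A, B and C did not pair the samples: same-letter deviations correlated at medians of 0.0041, 0.0084 and 0.0077 (28 pairs each, -0.19 to 0.15). With a replicate block, 6, 5, 17, 0, 19, 23, 21, 10, 6 and 0 members were called at the gene level in the same order of comparisons, 3, 0, 4, 0, 3, 4, 2, 0, 2 and 0 in share and 37, 2, 41, 3, 20, 36, 27, 7, 20 and 2 transcripts in usage, against 7, 5 and 4 without it for GSK-LSD1, MS023 and the interaction. The block kept 107 of 114 gene-level calls, 18 of 20 in share and 138 of 142 in usage. Library totals of about 32495400 to 61090600 counts set the depth, and transcripts with few reads have the least precise shares.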

Other observations

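The targets of the compounds were measured in the same libraries. PRMT5 had 85.3 to 114 CPM over the 24 libraries, KDM1A, which encodes LSD1, 100.2 to 129 CPM and PRMT1, the main type I methyltransferase, 279.5 to 379 CPM. Some members share their locus with other genes. HNRNPUL2 overlaps the readthrough gene HNRNPUL2-BSCL2, HNRNPA2B1 overlaps CBX3 and NFE2L3, HNRNPU overlaps COX20 and HNRNPH2 overlaps RPL36A-HNRNPH2, so with unstranded libraries part of their reads could belong to either gene.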
